A study of Homo sapiens with 8 samples.

Results

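The genes of the G1/S transition and of DNA replication were followed here as a set of 44 genes chosen by name, from the factors that load the replicative helicase to those that finish the new strand. A probe was counted to a gene through its RefSeq accession, and 43 of the 44 genes were found this way, with 53 of the 41000 probes, out of 17240 genes named on the array. BRCA1 was matched to no probe. Where a gene had more than 1 probe (10 genes had 2), its value is that of its brightest probe, and the other probe is given where it differs. All 43 genes were well above background in both channels of every array, so each has a measured ratio and none was lost to the filter on dim probes.

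Expression was compared in CAPAN-2, a widely used human cell line grown from a pancreatic adenocarcinoma, on 8 Agilent 2-colour arrays. On 4 of them the RNA of 1 ErbB2-KD clone (EV7, EV12, EV9 and EV18 on arrays 1 to 4), stably transfected with a puromycin vector encoding an shRNA against ErbB2, was set beside the pooled RNA of 4 NT clones, which carry the empty vector and the same selection. On the other 4 arrays RNA labelled MUC4-KD, from cells infected with a pRetroSuper retroviral vector directed against MUC4 and selected with G418, was set beside a pool of 4 Mock clones with the empty retroviral vector. All of these cells, controls included, are clones isolated by limiting dilution, the labels do not name the MUC4-KD clones, and 1 pool served all 4 arrays of an experiment, so that every test against 0 leaves out the spread between control clones. The labelled knockdown was in Cy5 on ErbB2-KD arrays 1 and 2 and MUC4-KD arrays 3 and 4, and in Cy3 on the others. Every value below is the log2 ratio of the RNA labelled as knockdown over the RNA labelled as control, so that 1 is a doubling.

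Before S phase, the origin recognition complex, CDC6 and CDT1 load the ring of MCM2 to MCM7 onto DNA, and geminin (GMNN) keeps CDT1 from doing so again. At the start of S phase CDC45 and the GINS complex join the ring to form the active helicase, primase and DNA polymerase alpha lay down primers, and polymerases delta and epsilon extend them on the PCNA clamp that replication factor C loads. Most of these genes are transcribed at the G1/S boundary under the E2F factors, and they are widely used as marks of proliferation in tumour cells. In RNA from a whole culture, fewer cells in S phase and less RNA per cell cannot be told apart.

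The targeted genes were read first. The brightest ERBB2 probe gave -0.58, -0.32, -0.32 and -0.38 on ErbB2-KD arrays 1 to 4, which averaged -0.40 ± 0.12 (SD, n = 4) with an adjusted p of 0.145 in limma. The other ERBB2 probe gave a mean of 0.04. In the MUC4-KD experiment 2 of the 4 MUC4 probes were called higher in the RNA labelled MUC4-KD, with means of 1.84 and 1.34 (limma adjusted p = 0.00808 and 0.0355), and the other probes had means of 0.27 and 0.41. MUC4 therefore goes against the MUC4-KD label, and the direction used here, which follows the dyes of the labels, is opposite to that in the study's own account of these cells. For MUC4-KD, "higher" and "lower" below compare the channel that the labels give as MUC4-KD with the one they give as Mock, and say nothing more. All 7 ductal epithelial markers (KRT7, KRT8, KRT18, KRT19, EPCAM, CDH1 and MUC1) were above background in all 16 channels. Of the 16 markers of other cell types with a probe, DCN and PDGFRB (fibroblasts), GCG (endocrine cells) and PNLIP (acinar cells) were above it in none, and LUM, COL1A2, CPA1, INS, CDH5, PECAM1 and PTPRC in 1 to 5. The leukocyte markers CD14 and CD68 and the endocrine marker CHGA were above it in all 16, VWF, an endothelial marker, in 15 and CD3E in 8, and the part of such signals in the member values was not tested. No spot was saturated, and the share of probes well above background ran from 56.7% to 74.3% over the channels.

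In ErbB2-KD cells no member gene was called at an adjusted p under 0.05 (limma, Benjamini-Hochberg over all 23877 probes tested), and 7 of the 43 (16.3%) had an unadjusted p under 0.05, beside 20.8% of all genes. Over all 12034 genes tested in this experiment 1.94% were called, with 0.748% higher and 1.20% lower. The median of the 43 members was -0.006, with quartiles of -0.24 and 0.15, beside -0.003 over all genes. The members varied between clones. Their median SD over the 4 arrays was 0.46, beside 0.33 over all genes and 0.47 over a list of G2/M genes, and the median of the members was -0.58 in EV7, 0.24 in EV12, 0.06 in EV9 and -0.02 in EV18, while that of all genes stayed between -0.04 and 0.01.

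EV7 was the low clone. There 38 of the 43 members (88.4%) were lower than in the NT pool, 25 of them by more than 0.5, beside 51.5% of all genes. In EV12 the reverse held for most, with 33 members higher than in the NT pool and 10 lower. EV9 and EV18 lay between them, with 21 and 23 members lower. EV12 was also the array with the brightest signal, with a median red signal of 593 against 158 to 201 on the other ErbB2-KD arrays, and 71.6% and 74.3% of probes were above background in the knockdown channel of EV7 and EV12 against 62.2% and 64.9% in EV9 and EV18. The part of this in the spread between clones was not tested. EV12 shared its slide with MUC4-KD array 4 and no other array, so its clone and its slide cannot be told apart.

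**Figure D1:**
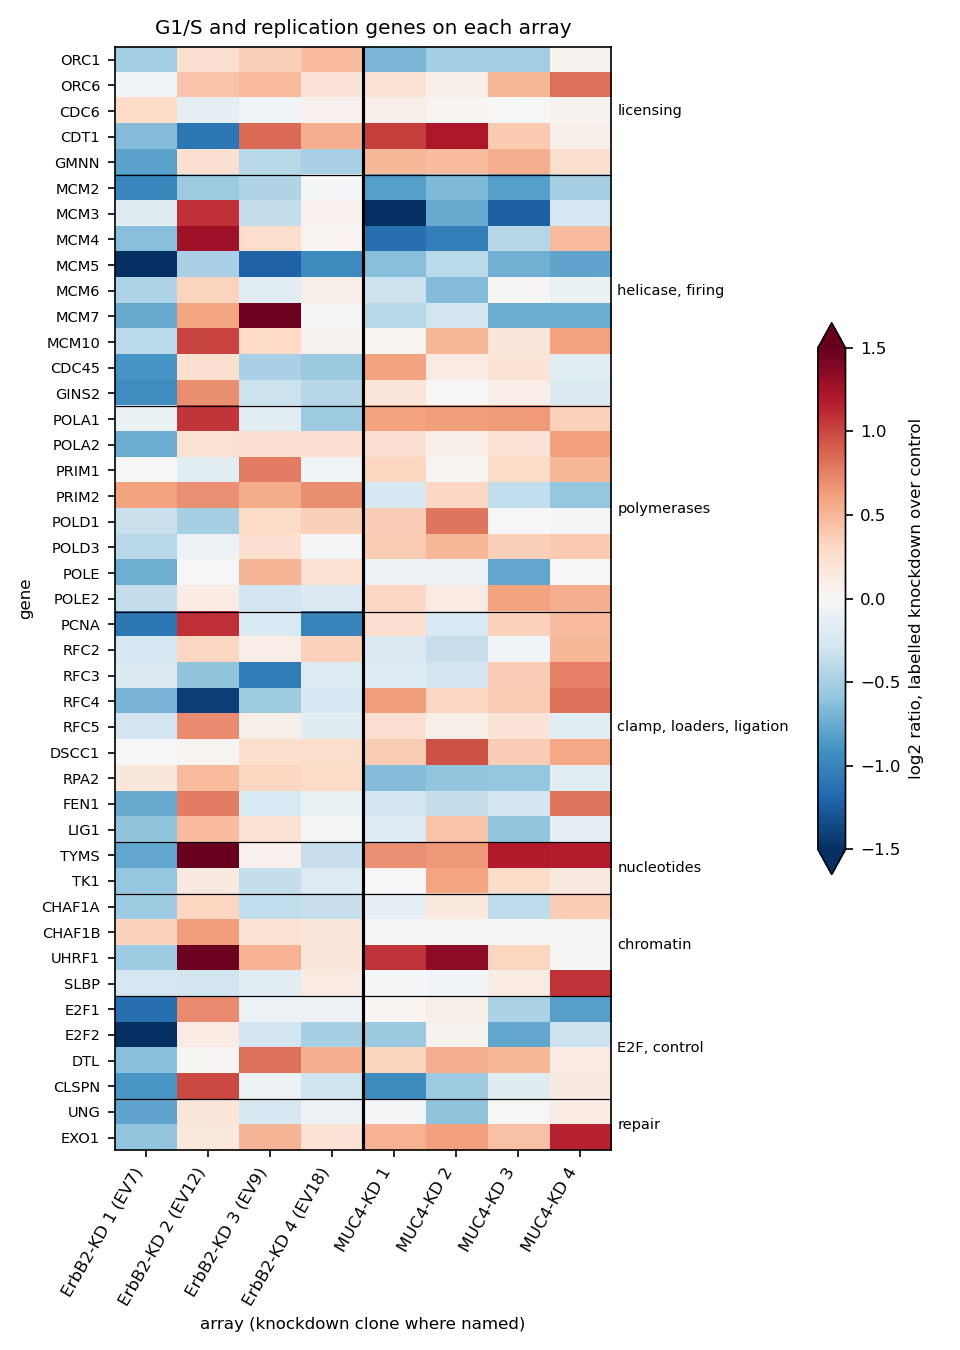
Heat map of the log2 ratio of labelled knockdown over control for the 43 member genes (rows, grouped by role) on the 8 arrays (columns; red higher, blue lower, colours end at 1.5 in either direction). The column of EV7 is blue for 38 genes and that of EV12 red for 33. In the MUC4-KD columns MCM2 to MCM7 form a mostly blue block, with MCM4 at 0.48 on array 4, above a mostly red block of polymerase genes.

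The members with the largest SD between ErbB2-KD clones came from different roles, in the order TYMS, PCNA, MCM7, CDT1 and UHRF1. By role, the median SD was 0.78 for the 2 genes of nucleotide supply and 0.74 for the 4 of E2F and S phase control. It was 0.59 for the 9 of the MCM helicase and origin firing, and 0.45 for the 9 of the clamp, its loaders, strand binding and Okazaki fragments. TYMS, thymidylate synthase, gave -0.78, 2.07, 0.06 and -0.35 in EV7, EV12, EV9 and EV18. PCNA, the sliding clamp, gave -1.08, 1.09, -0.23 and -0.99. EV12 alone was above its control pool by more than 1 for both, and the mean of neither could be told from 0 (0.25 ± 1.26 and -0.30 ± 1.00, SD, n = 4). EV12 was likewise the highest clone for MCM3 (1.099), MCM4 (1.27), MCM10 (1.01), POLA1 (1.07), CLSPN (0.99) and UHRF1 (1.47), which encodes a reader of hemimethylated DNA, and EV7 was the lowest clone for MCM4, MCM10, CLSPN and UHRF1 (-0.64, -0.40, -0.87 and -0.55). The factors that turn the ring into a helicase were low in EV7 and high in EV12 as well. CDC45 gave -0.88, 0.24, -0.49 and -0.55 and GINS2 gave -0.93, 0.70, -0.32 and -0.42, so that in both only EV12 was above 0. EV7 was also the lowest and EV12 the highest clone for GMNN (-0.81, 0.24, -0.42 and -0.49) and for the E2F factors themselves, with -1.13, 0.71, -0.09 and -0.09 for E2F1 and -1.58, 0.13, -0.29 and -0.50 for E2F2. The second, dimmer E2F2 probe stayed between -0.08 and 0.08. MCM7 broke this pattern, with -0.75 in EV7 and 0.59 in EV12 but 1.47 in EV9, the largest member value on that array. ORC1 and DTL were low in EV7 (-0.52 and -0.62) and highest in EV18 (0.46) and EV9 (0.83), respectively.

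A smaller group kept its direction in all 4 ErbB2-KD clones. MCM5, a subunit of the MCM ring, was lower in every clone (-1.61, -0.49, -1.22 and -0.96), with a mean of -1.07 ± 0.47 (SD, n = 4). This is 2.10-fold lower, the largest mean change among the members in this experiment, and its adjusted p was 0.0653 (limma). It was past the threshold in the fit without EV12 (-1.26, adjusted p = 0.0355) and in a single fit over all 8 arrays (adjusted p = 0.00888), and not in the fits without EV7, EV9 or EV18 (adjusted p from 0.159 to 0.286). RFC4 and RFC3, subunits of the clamp loader, were also below 0 in all 4 clones, at -0.72 ± 0.49 and -0.52 ± 0.40 (mean ± SD, n = 4), with adjusted p of 0.148 and 0.203 in limma. The second RFC3 probe did not share this, with a mean of 0.17. MCM2 gave -0.98, -0.54, -0.45 and -0.03, ending close to 0 in EV18.

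PRIM2, the large subunit of primase, had the tightest values of all: 0.60, 0.69, 0.56 and 0.69 in EV7, EV12, EV9 and EV18, a mean of 0.64 ± 0.07 (SD, n = 4), with an adjusted p of 0.0530 (limma). The single fit over all 8 arrays gave it an adjusted p of 0.0369. Its second probe, which lost EV12 to an outlier spot, gave 0.72, 0.05 and 0.24 in EV7, EV9 and EV18. CHAF1B, a subunit of chromatin assembly factor 1, and RPA2, a subunit of the single-strand binding protein, were above 0 in all 4 clones, at 0.34 ± 0.20 and 0.31 ± 0.12 (mean ± SD, n = 4), with adjusted p of 0.231 and 0.219 in limma. In all, 3 members kept a positive sign and 4 a negative sign on the 4 arrays, 7 of 43, beside 3372 of the 12034 genes tested.

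**Figure D2:**
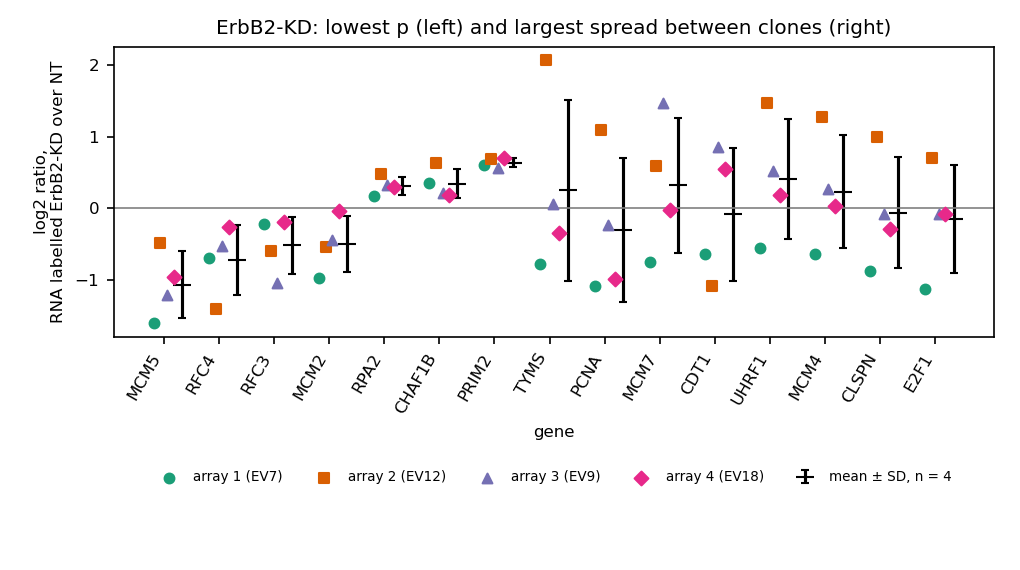
Log2 ratio of RNA labelled ErbB2-KD over NT for each clone (points; symbols by clone) with the mean and SD of the 4 arrays (black), for the 7 members with an unadjusted p under 0.05 and, to their right, 8 members with the largest SD between clones. MCM5 lies below 0 and PRIM2 above 0 in every clone, whereas TYMS runs from -0.78 in EV7 to 2.07 in EV12.

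In the MUC4-KD experiment 12 of the 43 members were called (limma adjusted p under 0.05), with 7 of them higher and 5 of them lower as labelled, beside 23.1% of all 12294 genes tested, 12.2% higher and 10.9% lower. The share of members called, 27.9%, was near that background. With the log ratios of Feature Extraction 3 members were called higher and 4 lower, and with median centring in place of loess none was, nor any other gene. Without array 1, 2 or 3, the members called were 0, 1 and 0, and without array 4 they were 17, of which 7 were lower. Calls over all genes moved alike, from 2839 to 389, 642 and 115 without array 1, 2 or 3 and to 4590 without array 4. Over the 43 members, Pearson's r of array 4 with arrays 1 to 3 was 0.36, 0.21 and 0.66, and r among arrays 1 to 3 ran from 0.59 to 0.83. Array 4 shared its slide only with the array of EV12, so its RNA and its slide cannot be told apart. The methods give 4 MUC4-KD clones, but the labels do not tie a clone to an array. If arrays 1 and 3, and 2 and 4, were instead dye swaps of the same RNA, n would be 2, and with these pairs averaged 5 members were called. The median of the members was 0.09 and their array medians were 0.03, 0.08, 0.09 and 0.12, so that the set as a whole lay close to 0 on every array, with genes of different roles on either side.

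The lower genes were mainly those of the helicase ring. MCM2 gave -0.83, -0.68, -0.82 and -0.50 on arrays 1 to 4, and averaged -0.71 ± 0.15 (SD, n = 4), which is 1.63-fold lower (limma adjusted p = 0.0154). MCM3 gave -1.51, -0.75, -1.22 and -0.27, a mean of -0.94 ± 0.54 (1.92-fold lower, adjusted p = 0.0347). Both were below 0 on all 4 arrays, and MCM3 had the largest fall of any member but also a wide spread, with array 4 the closest to 0. MCM5 gave -0.64, -0.41, -0.72 and -0.80, a mean of -0.64 ± 0.17 (adjusted p = 0.0204). MCM7 gave -0.41, -0.28, -0.75 and -0.74, a mean of -0.54 ± 0.24 (adjusted p = 0.0372). The remaining subunits had means below 0 but were not called. MCM4 gave -1.13, -1.03, -0.43 and 0.48, and MCM6 gave -0.32, -0.65, 0.02 and -0.10 (adjusted p = 0.205 and 0.216).

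MCM2 to MCM7 were set apart from the list after these values had been seen, so they are given as a description with no test. All 6 subunits had a mean below 0, 4 of 6 were called lower, and the median of the 6 was -0.59, with array medians of -0.73, -0.66, -0.73 and -0.38. The other 37 members had a median of 0.21, with 7 called higher and 1 lower. The helicase factors outside the ring had means above 0: MCM10, an initiation factor, had a mean of 0.33 ± 0.27, CDC45 0.19 ± 0.32 and GINS2 0.01 ± 0.17 (SD, n = 4), none of them called. In ErbB2-KD cells the 6 subunits were mixed, with 3 means on either side of 0. Without array 1, 2 or 3 no subunit was called lower in MUC4-KD, and without array 4 the subunits called lower were 5. Calls over all genes fell and rose in the same fits, as given above.

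The fifth member called lower was RPA2, with -0.64, -0.59, -0.59 and -0.15 (mean -0.49 ± 0.23, SD, n = 4, limma adjusted p = 0.0447). Array 4 stood apart from the other 3, which lay within -0.64 and -0.59.

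Of the genes called higher, TYMS had the largest change. It gave 0.69, 0.65, 1.19 and 1.17, and averaged 0.93 ± 0.30 (SD, n = 4), which is 1.90-fold higher (limma adjusted p = 0.0141). TK1, the salvage enzyme thymidine kinase, gave values from 0.01 to 0.59 and was not called. EXO1, a 5′ to 3′ exonuclease of mismatch repair, gave 0.52, 0.61, 0.44 and 1.15 (mean 0.68 ± 0.32, adjusted p = 0.0317), with array 4 the highest. The uracil glycosylase UNG, also a repair gene, had a mean of -0.13 and was not called.

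Among the polymerase genes 6 of 8 means lay above 0 and 2 were called, both higher. POLA1, the catalytic subunit of polymerase alpha, gave 0.61, 0.63, 0.64 and 0.34 (mean 0.56 ± 0.14, SD, n = 4, limma adjusted p = 0.0257). POLD3, an accessory subunit of polymerase delta, gave 0.39, 0.50, 0.36 and 0.39 (mean 0.41 ± 0.06, adjusted p = 0.0409), the narrowest range of the called members. Its second, dimmer probe disagreed, with -1.11 and -0.76 on arrays 1 and 2 and 0.40 and 0.27 on arrays 3 and 4, so the direction of POLD3 rests on 1 of its probes. POLE2, PRIM1 and POLA2 were above 0 on all 4 arrays with means of 0.40, 0.29 and 0.29 and were not called. POLE, the catalytic subunit of polymerase epsilon, and PRIM2 had means of -0.24 and -0.22.

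Of the clamp and its loaders, RFC4 gave 0.63, 0.32, 0.38 and 0.83 (mean 0.54 ± 0.24, SD, n = 4, limma adjusted p = 0.0383) and DSCC1, which belongs to the alternative loader of sister chromatid cohesion, gave 0.38, 0.96, 0.37 and 0.58 (mean 0.57 ± 0.27, adjusted p = 0.0386). Both were above 0 on every array. RFC2, RFC3 and RFC5 were not called and had means of -0.03, 0.16 and 0.09. PCNA gave 0.25, -0.23, 0.35 and 0.46, and the Okazaki fragment enzymes FEN1 and LIG1 had means of -0.03 and -0.13.

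The licensing genes had means above 0, apart from ORC1. GMNN, the inhibitor of CDT1, gave 0.50, 0.47, 0.54 and 0.26 (mean 0.44 ± 0.13, SD, n = 4, limma adjusted p = 0.0401). CDC6 was the flattest of these genes, with values from -0.006 to 0.07. ORC6 was above 0 on all 4 arrays (mean 0.41 ± 0.33, adjusted p = 0.0992), while ORC1 gave -0.69, -0.51, -0.52 and 0.05 (mean -0.42 ± 0.32, adjusted p = 0.0925). None of the E2F and S phase control genes was called: E2F1, E2F2 and CLSPN, a mediator of the replication checkpoint, had means of -0.30, -0.40 and -0.38, and DTL, which directs the degradation of CDT1, had a mean of 0.37 and was above 0 on all 4 arrays. The second E2F2 probe had a mean of 0.02. Among the chromatin genes CHAF1B stayed between -0.02 and 0.02 on every array, CHAF1A ran from -0.38 to 0.38, and UHRF1 gave 1.09, 1.34, 0.32 and 0.01 (mean 0.69 ± 0.63, SD, n = 4, limma adjusted p = 0.0867).

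**Figure D3:**
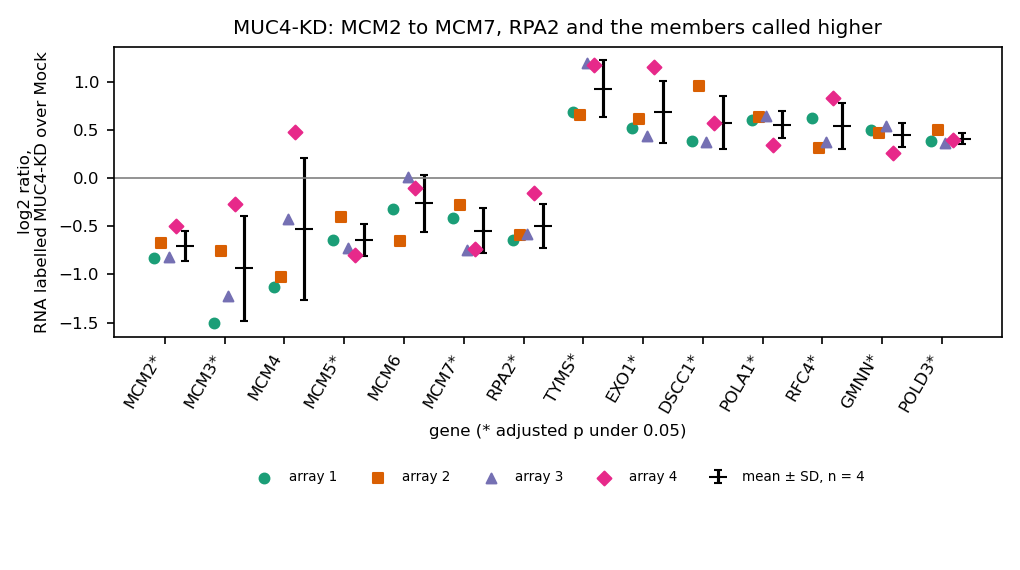
Log2 ratio of RNA labelled MUC4-KD over Mock on each array (points; symbols by array) with the mean and SD of the 4 arrays (black), for MCM2 to MCM7, RPA2 and the 7 members called higher; a star marks an adjusted p under 0.05. MCM4 runs from -1.13 on array 1 to 0.48 on array 4, whereas POLD3 stays between 0.36 and 0.50.

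Promoter letters are shown for members on either side of 0 in the MUC4-KD experiment, because an E2F core was found among both lower and higher genes. The cores searched were TTTGGCGC, TTTCGCGC, TTTCCCGC and TTTGCCGC, on both strands, in the 250 bases before and 50 bases after each start in RefSeq (GRCh38.p14). Cores of opposite strands can overlap in 1 stretch. Such a core was held by 21 of the 39 members with an entry there (53.8%), beside 3.31% of all 35116 promoters. It was found in all 4 of the MCM2 to MCM7 genes with an entry and in 17 of 35 other members (48.6%). In the G2/M list described below 3 of 29 genes held it (10.3%). Among members with an entry, it was in 3 of 3 called lower and 3 of 5 called higher in MUC4-KD. The letters CCAAT were present in 20 of the 39 members (51.3%) and 34.6% of all promoters, and the CHR cores TTTGAA and TTCGAA in 1 of the 39 (2.56%), beside 72.4% of the G2/M list and 16.4% of all promoters. A match is only a run of letters and was not tested as a binding site. The stretches below are read 5′ to 3′ on the strand of the gene and end before its start, with the E2F cores in capitals. They come from MCM3 (chr6:52284889-52284936, minus strand), MCM7 (chr7:100101398-100101426, minus strand) and MCM6 (chr2:135876502-135876549, minus strand), which had means below 0, and from TYMS (chr18:657594-657641, plus strand) and POLA1 (chrX:24693761-24693808, plus strand), which were called higher.
MCM3: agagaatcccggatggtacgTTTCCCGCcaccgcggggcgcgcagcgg
MCM7: cggtcacgtggggggcgacgTTTCGCGCc
MCM6: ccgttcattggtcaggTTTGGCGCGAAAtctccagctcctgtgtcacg
TYMS: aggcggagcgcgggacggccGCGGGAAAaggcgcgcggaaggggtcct
POLA1: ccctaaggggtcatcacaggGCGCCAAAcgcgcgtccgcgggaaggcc
The MCM6 stretch holds overlapping cores, 1 on each strand, and those of TYMS and POLA1 lie on the opposite strand to the gene. The same core, TTTCCCGC, is thus present upstream of MCM3, with a mean of -0.94, and of TYMS, with a mean of 0.93.

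Some member values separated by the dye of the labelled knockdown. CDT1 was called in neither experiment, but both of its probes separated by dye in both. With the labelled knockdown in Cy3 its brighter probe averaged 0.70 on the ErbB2-KD arrays and 1.13 on the MUC4-KD arrays. With the labelled knockdown in Cy5 it averaged -0.87 and 0.23. POLD1, the catalytic subunit of polymerase delta, behaved alike on both probes, with 0.32 and 0.59 in Cy3 against -0.42 and -0.0086 in Cy5 for the brighter. The CDT1 and POLD1 values were the same way round in experiments with different clones and control pools. SLBP, the histone mRNA binding protein, also separated in both, but in opposite directions. It averaged -0.03 in Cy3 against -0.27 in Cy5 in ErbB2-KD, and -0.03 against 0.60 in MUC4-KD. The dimmer E2F2 probe also separated in opposite directions. UHRF1 and MCM4 separated by dye in MUC4-KD only. UHRF1 averaged 1.22 with Cy3 and 0.17 with Cy5, and its second, dimmer probe had a mean of -0.02 over the 4 arrays. MCM4 averaged -1.08 with Cy3 and 0.03 with Cy5. Other members separated too, among them the called MCM5 (-0.52 with Cy3, -0.76 with Cy5), MCM7 (-0.35, -0.74), RPA2 (-0.62, -0.37) and TYMS (0.67, 1.18) in MUC4-KD. With so few arrays per dye, values can separate without a dye effect, and the share over all genes was not counted. In ErbB2-KD each clone was in a single dye, so dye and clone cannot be told apart. When a dye term was added, CDT1 and UHRF1 were called higher in MUC4-KD (means 0.68 and 0.69, limma adjusted p = 0.0194 and 0.0197), as was POLE2. MCM4 was not called (adjusted p = 0.0734), and all 4 MCM subunits called lower stayed called. With this term 15 members were called, and calls over all genes rose from 2839 to 3557.

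**Figure D4:**
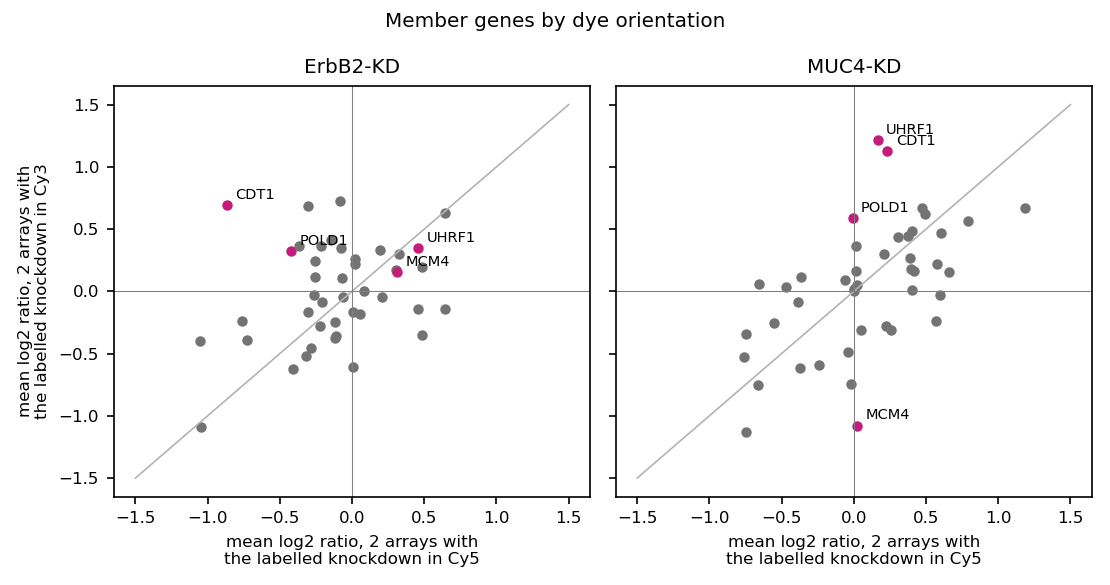
Mean log2 ratio of each member over the 2 arrays with the labelled knockdown in Cy3 (vertical axis) against that over the 2 arrays with it in Cy5 (horizontal axis), in ErbB2-KD (left) and MUC4-KD (right); each point is 1 gene and the grey line marks equal values. CDT1 and POLD1 lie above the line in both experiments, and MCM4 lies below it in MUC4-KD (-1.08 against 0.03).

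The difference between the experiments was tested with limma over all 8 arrays, as the ratio in MUC4-KD minus the ratio in ErbB2-KD. It was called for 4 of the 43 members, beside 11.4% of all 12597 genes tested. As labelled, RFC4 had the largest difference, 1.26 ± 0.25 (SE, adjusted p = 0.0191). Its mean was -0.72 in ErbB2-KD cells and 0.54 in the RNA labelled MUC4-KD. GMNN had -0.37 and 0.44, a difference of 0.81 ± 0.22 (adjusted p = 0.0491). For RFC2, RFC3 and RFC5, the other clamp loader subunits in the set, the differences were -0.15, 0.68 and 0.01, none of them called. RFC4 and GMNN were thus higher in MUC4-KD than in ErbB2-KD on the labelled scale. PRIM2 and RPA2 ran the other way, with differences of -0.85 ± 0.20 and -0.81 ± 0.16 (SE, adjusted p = 0.0300 and 0.0187), from 0.64 to -0.22 and from 0.31 to -0.49. In these 4 genes the 4 values of one experiment did not overlap with those of the other. The same held for POLE2, POLD3, DSCC1 and CHAF1B, which were not called, and the share over all genes was not counted. The calls were 0 without MUC4-KD array 1 or array 3 and 2 without any single one of MUC4-KD array 2 and ErbB2-KD arrays 1, 3 and 4. Over all genes the 1438 calls became 502 and 396, and 657, 924, 713 and 812, in the same order. All 4 calls depended on the labelled MUC4-KD direction. With the MUC4-KD sign turned, the differences were 0.19 for RFC4, -0.42 for PRIM2, -0.0745 for GMNN and 0.18 for RPA2 (adjusted p = 0.634, 0.162, 0.836 and 0.457). The members then called were 3 others, MCM5 (1.71, adjusted p = 0.00307), MCM2 (1.21, adjusted p = 0.00747) and DSCC1 (-0.71, adjusted p = 0.0248), beside 19.4% of all genes.

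MCM2 and MCM5 were below 0 on all 8 arrays as labelled, and with the MUC4-KD sign turned they were above 0 on the 4 MUC4-KD arrays. On the labelled scale, for MCM5 the difference was 0.43 ± 0.23 (SE, adjusted p = 0.259) and for MCM2 -0.21 ± 0.21 (adjusted p = 0.546). Of the 43 members, 20 had means of the same sign in both experiments and 23 of opposite sign as labelled (23 and 20 with the sign turned), and Pearson's r between the means was 0.11 (-0.11 with the sign turned) over the 43 genes, which share arrays and are not independent replicates.

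**Figure D5:**
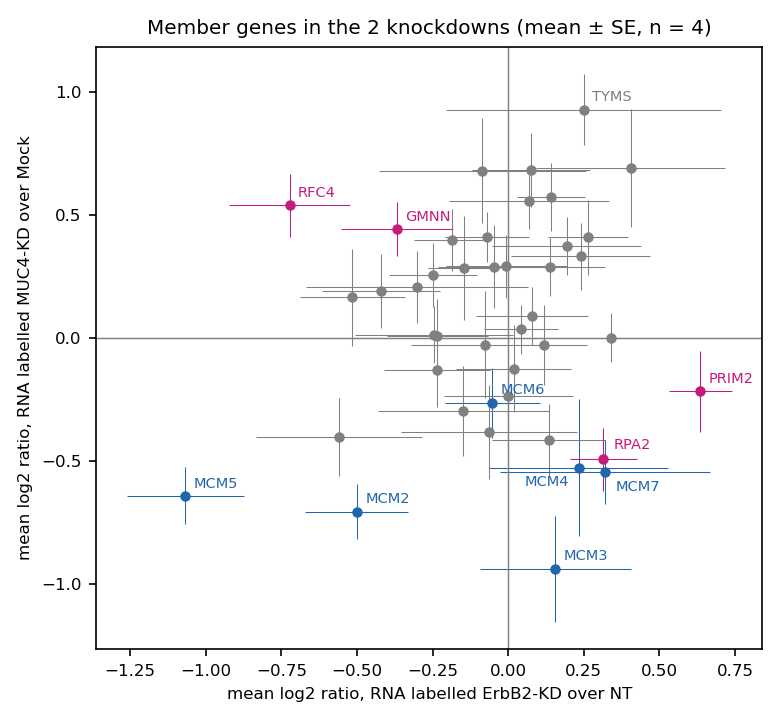
Mean log2 ratio of the 43 members in ErbB2-KD (horizontal) and MUC4-KD (vertical), with SE from limma as bars (n = 4 arrays each); the 4 genes whose difference was called are in pink, MCM2 to MCM7 in blue and the others in grey. As labelled, MCM2 and MCM5 lie in the lower left, RFC4 and GMNN in the upper left, and PRIM2 and RPA2 in the lower right.

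Replication genes outside the set were read from a wider list of 58 genes, of which 57 were tested. None was called in ErbB2-KD, with 5 at an unadjusted p under 0.05. In MUC4-KD 16 were called higher and 2 lower, with a median of 0.23, beside 12.2% and 10.9% of all genes. The highest of these were ATAD2, a chromatin factor (1.35 ± 0.21, SD, n = 4), TICRR, needed for origin firing (1.34 ± 0.25), RRM2, a subunit of ribonucleotide reductase (1.25 ± 0.21), and RAD51AP1 (0.86 ± 0.34). The second, dimmer probes of ATAD2 and RRM2 did not share this, with means of 0.12 and 0.15, and the mean of a gene's probes gave 0.74 and 0.70, while the second TICRR probe had a mean of 1.14. The 2 called lower were GINS3 (-0.55 ± 0.12), of the GINS complex, and ORC5 (-0.39 ± 0.11), of the origin recognition complex. Members of the same complexes, GINS2, ORC1 and ORC6, had means of 0.01, -0.42 and 0.41, and none of them was called.

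A list of 35 G2/M genes was read beside the members as the next phase of the cycle. In the RNA labelled MUC4-KD 29 of the 34 tested were called higher and none lower. Their median was 0.99, against a median of 0.09 for the G1/S members. The highest were the mitotic kinesin KIF20A (1.73 ± 0.53, SD, n = 4), CENPF (1.60 ± 0.47) and the checkpoint kinases BUB1 (1.54 ± 0.24) and BUB1B (1.48 ± 0.12). The second, dimmer CENPF probe had a mean of 0.36 and was not called, and the mean of the CENPF probes was 0.98. The paper reports cyclin B1, CDC2 and ECT2 as decreased in MUC4-KD cells. As labelled here they went the other way, with means of 0.99 (CCNB1), 1.42 (CDK1, the CDC2 gene) and 1.12 (ECT2). The dimmer ECT2 probes had means of 1.34 and 0.09. In ErbB2-KD none of the 34 was called, 4 had an unadjusted p under 0.05, and the median was 0.21, with array medians of -0.44 in EV7, 0.45 in EV12, 0.33 in EV9 and 0.23 in EV18. EV7 was thus the lowest clone for this list as for the members. These lists were chosen with earlier results of the arrays known, and the difference between them was not tested.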

How the data were processed

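The authors scanned each array and deposited the output of Agilent Feature Extraction (10.5.1.1 per the file headers, which name hg18 as the build of the probe annotation). The deposited intensity values are uncorrected medians over the pixels of each spot and of its local background, made by the authors with that software, beside a log10 ratio of the dyes after Feature Extraction's own background and dye correction. A second deposited table of log10 ratios equals these turned to knockdown over control.

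In R 4.3.3 with limma 3.58.1, intensities were corrected by normexp (offset 50) and each array was normalized by loess with control spots at weight 0. Outlier spots were then dropped, and the remaining spots of one probe were averaged. The probes tested were those whose knockdown RNA, or else whose control RNA, passed Feature Extraction's background test on each of the 4 arrays (23877 in ErbB2-KD, 25054 in MUC4-KD, 25841 for the difference). They were fitted by lmFit and eBayes, with Benjamini-Hochberg adjustment over all of them. A gene was called at an adjusted p under 0.05. For a single gene, the smallest p that exact flips of the 4 signs allow is 0.125. Symbols were taken by accession from RefSeq (25398 of 41000 probes). The p-values measure the spread between arrays, which the methods give as separate clones.

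The members and lists were chosen with earlier results of these data known. Every member is described. Other genes are named where called in the same direction on all 4 arrays, at most 4 per list, direction and experiment. CCNB1, CDK1 and ECT2 are named besides because the paper reports them. Promoters come from RefSeq (GRCh38.p14). The steps were tested on simulated data. The alternatives were a normexp offset of 10, Feature Extraction's ratios, median centring, other filters, the mean of a gene's probes, a dye term, slide or replicate number as a block, an intensity trend with robust eBayes, a joint fit, the methods' test against 0, MUC4-KD arrays averaged in pairs (1 with 3, 2 with 4) that no label gives, the MUC4-KD sign turned, and leaving out each array. Array number limits the precision.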

Additional observations from a re-analysis of the deposited data

Results flagged for a closer look

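In 6 of 86 sets of 4 values (43 members in each of the 2 experiments) 1 array lay far from the other 3; chance marks about 1 set in 20. In ErbB2-KD this was POLA2, at -0.74 in EV7 against 0.23 to 0.25 in the other clones. In MUC4-KD 4 of the 5 were values of array 4: FEN1 at 0.80 against -0.36 to -0.27, SLBP, the histone mRNA binding protein, at 1.08 against -0.04 to 0.11, POLA1 at 0.34 against 0.61 to 0.64, and RPA2 at -0.15 against -0.64 to -0.59. The second FEN1 probe gave 0.89 on array 4 against -0.19 to -0.10. POLE stood apart on array 3, at -0.78 against -0.09 to 0.01.

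The ratio in MUC4-KD differed from that in ErbB2-KD, by limma's test of the difference, for RPA2 (-0.81), RFC4 (1.26), PRIM2 (-0.85) and GMNN (0.81). None of these 4 was called with the MUC4-KD sign turned.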

How the results depend on the processing

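In ErbB2-KD the count of 0 called members became 1 (MCM5) with slide as a fixed block and with an intensity trend and robust eBayes, 2 (MCM5 and PRIM2) with slide as a random block and in 1 fit over all 8 arrays, and 4 by the methods' test at an unadjusted p under 0.05, which became 0 after Benjamini-Hochberg adjustment; leaving out 1 array gave 0 to 1, and the median then ran from -0.13 to 0.18. In MUC4-KD the 12 called members became 7 with the log ratios of Feature Extraction, 0 with median centring, 6 with no filter on dim probes, 5 with arrays 1 and 3 and arrays 2 and 4 averaged, and 0 by the methods' test after adjustment (14 before it); leaving out 1 array gave 0 to 17. Over all genes the 2839 calls became 3329, 0, 1859, 1780 and 82 in these settings (3812 before adjustment), and 115 to 4590 without 1 array. The 4 MCM subunits called lower became 0, 2 and 2 with median centring, no filter on dim probes and averaged arrays, 0 by the methods' test after adjustment, and 0 to 5 without 1 array. The MUC4-KD median of 0.09 became 0.22 with median centring and 0.0299 to 0.095 without 1 array. The 4 differences became 0 with median centring, 1 with averaged arrays and 0 to 6 without 1 array. With the MUC4-KD sign turned the differences of GMNN and RPA2 reversed (-0.0745 and 0.18), those of RFC4 and PRIM2 were no longer called (0.19 and -0.42), and 3 other members were called. The causes were not tested, apart from fewer arrays or more probes entering the test by construction.

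The replicate number as a block left 1 difference, RFC4 (adjusted p = 0.0416). Deviations of arrays with the same number correlated at -0.12, -0.24, -0.05 and -0.13. Arrays with the same number always had the labelled knockdown in opposite dyes. Every pair in opposite dyes correlated below 0, whatever its number (-0.24 to -0.05), and every pair in the same dye above 0 (0.02 to 0.25). These values therefore cannot tell whether the numbers pair the samples. Slide as a random block could not be estimated from the 4 arrays of 1 experiment and was fitted over all 8; both slide fits of the single experiments were chosen after seeing the data, as was the fixed block for the difference (3 called). Within the 3 slides the ErbB2-KD member median was -0.19, 0.24 and -0.02, and that of MUC4-KD 0.08, 0.12 and 0.08. Slide 2 held only EV12 and MUC4-KD array 4, so its medians, 0.24 and 0.12, are those of single arrays. Offset 10, a filter in both channels, the mean of a gene's probes and the dye term changed no count by over 1.5 times. Of the 12 members called in MUC4-KD none changed sign under the alternatives run for that experiment alone. All 12 had the same sign on all 4 arrays, so leaving out or averaging arrays could not change it. The turned MUC4-KD sign was run only for the difference.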
